A study of Homo sapiens with 6 samples.

Results

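The genes described here build and guard the folding compartment of the secretory pathway: 33 genes for chaperones of the endoplasmic reticulum (ER), disulfide isomerases, ER-associated degradation and the stress sensors of the unfolded protein response. They were matched by gene symbol, and all 33 have a row among the 22701 gene symbols of the deposited table. Polyadenylated RNA was sequenced from LX-2 cells, a human line derived from hepatic stellate cells, which lay down matrix when the liver scars. The cells behind all 6 libraries received TGF-β, the cytokine that drives stellate cells to make collagen, at 5 µg/mL by the description. The cells of 3 libraries received TGF-β alone, and the cells of the other 3 also received 20 µM ligustilide (LIG), a phthalide of Angelica and Ligusticum roots. The description says transfected for both agents, taken here to mean that they were added to the medium. No treatment time is given in the sources used here, and cells free of TGF-β were not analysed here, so every value is a level under TGF-β. Whether replicates came from separate cultures is not stated, so the spread behind each p-value is that between these samples and may be technical.

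Secreted and membrane proteins enter the ER unfolded, and chaperones such as BiP (the product of HSPA5), GRP94 (HSP90B1) and the lectins calreticulin (CALR) and calnexin (CANX) help them fold while disulfide isomerases set their cysteine bonds. Proteins that fail are pulled back across the membrane and degraded. When unfolded proteins accumulate, the membrane sensors IRE1 (ERN1), PERK (EIF2AK3) and ATF6 start the unfolded protein response: IRE1 splices the mRNA of XBP1, ATF6 is cut to release a transcription factor, and PERK slows translation. Cells that secrete much collagen, stellate cells among them, depend on this machinery.

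The ER stress response element (ERSE) is the promoter sequence through which ATF6 and spliced XBP1 act with the factor NF-Y. Promoter sequence was not part of the rule for the genes, but they were picked as genes of this response. A larger share among them than over all promoters is therefore no independent result. The ERSE is shown here as background on how the sensors act. It was searched as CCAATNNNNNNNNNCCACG on both strands of RefSeq promoters (GRCh38.p14), from 250 bases before to 50 after each gene's start. The full motif was in 27 of 35116 promoters (0.0769%), which belong to 25 of 27305 genes. Of the 31 members with a promoter in the table, 7 hold it (22.6%): HSPA5, HSP90B1, CALR, CANX, PDIA6, CRELD2 and XBP1. PDIA3 and DERL1 have no entry. Each line gives the motif in capitals, in the gene's own 5′ to 3′ direction, with its flanks in lower case, and where the capitals start with CGTGG the motif lies on the other strand.
HSPA5, chr9:125241386-125241414, minus strand: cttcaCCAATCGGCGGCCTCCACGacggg
HSP90B1, first copy, chr12:103930211-103930239, plus strand: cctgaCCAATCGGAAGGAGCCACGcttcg
HSP90B1, second copy, chr12:103930316-103930344, plus strand: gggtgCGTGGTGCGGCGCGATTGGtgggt
CALR, chr19:12938379-12938407, plus strand: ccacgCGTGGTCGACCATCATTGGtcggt
CANX, chr5:179698773-179698801, plus strand: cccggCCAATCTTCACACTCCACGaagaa
PDIA6, chr2:10812848-10812876, minus strand: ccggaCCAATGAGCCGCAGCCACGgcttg
CRELD2, chr22:49918549-49918577, plus strand: cctctCGTGGCGAACTCGGATTGGgccat
XBP1, chr22:28800598-28800626, minus strand: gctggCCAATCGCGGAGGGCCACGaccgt

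Distances here and below are from RefSeq starts. The ERSE starts 66 bases before the RefSeq start of HSPA5 and 52 bases before that of XBP1. HSP90B1 has a copy on each strand, 194 and 89 bases before its RefSeq start. The gene positions printed further below are GENCODE spans, which can begin at another base. Both HSP90B1 copies lie inside its GENCODE span (103930107 to 103953645). The ERSE sites of CANX, PDIA6 and CRELD2 also lie inside the GENCODE spans of these genes.

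A compact form of the element, ERSE-II, was searched as ATTGGNCCACG on both strands and was in 19 of 35116 promoters (0.0541%). Of the 19 genes that hold it 3 are members: HERPUD1, HYOU1 with 2 copies, and SDF2L1. The lines are written as above, and capitals that start with CGTGG again mark the other strand.
HERPUD1, chr16:56932016-56932044, plus strand: cggacgccgATTGGGCCACGttgggagag
HYOU1, first copy, chr11:119057371-119057399, minus strand: gccccgtgaCGTGGTCCAATcccaggccg
HYOU1, second copy, chr11:119057265-119057293, minus strand: ggcctgggaCGTGGTCCAATgagtacgcg
SDF2L1, chr22:21642105-21642133, plus strand: cctcggaagCGTGGACCAATcaaaaccct

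The XBP1 site UPRE, searched as TGACGTGG on both strands, was in 0.729% of promoters and in those of DNAJC10, TXNDC5 and HYOU1, where it starts 188 bases before the start and overlaps the first ERSE-II copy (185 bases before the start). A match is a run of letters and not a measured binding site.

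Values are FPKM, fragments scaled by gene length and library total, as deposited, and can be compared between genes. The library totals behind the FPKM were even, from 38401783 to 39260090 fragments. They were inferred from the FPKM values and are not counts of sequenced reads. TGF-β replicate 2 and LIG replicate 3 stood apart from the other 4 libraries on the first principal component (55.1% of the variance), with a summed FPKM of 348518 and 362034 against 324022 to 328949 in the others. As for the labelled cell type, 9 of 14 stellate cell and myofibroblast markers had a mean of at least 1 FPKM, among them VIM, COL1A1, SPARC and PDGFRB. The list summed to 3380 to 3590 FPKM under TGF-β alone and 3040 to 3450 FPKM with LIG. The marker DES was at 0 to 0.0115 FPKM and ACTA2 at 2.11 to 3.43 FPKM in every library. LUM reached at most 0.9 FPKM and RELN 0.0178 FPKM. COL1A2 was uneven, at 0.675, 0.708 and 6.73 FPKM under TGF-β alone (replicates 1 to 3), against 5.08, 3.28 and 3.24 FPKM with LIG. DCN was at 0.122, 0.131 and 1.43 FPKM, against 1.05, 0.711 and 0.594 FPKM. Summed endothelial markers reached at most 0.338 FPKM under TGF-β alone and 0.239 FPKM when LIG was added. The leukocyte list summed to 12.9 to 15.0 FPKM and 14.0 to 15.6 FPKM, of which CD68 held 12.1 to 14.9 FPKM over the 6 libraries, while PTPRC, the pan-leukocyte marker, reached at most 0.016 FPKM. The hepatocyte list summed to 3.54 to 4.07 FPKM and 3.31 to 4.89 FPKM, of which SERPINA1 held 3.20 to 4.86 FPKM. Of 5 cholangiocyte and epithelial markers 2, KRT7 and SOX9, had a mean of at least 1 FPKM, and the summed level of the list was 13.6 to 13.9 FPKM under TGF-β alone and 11.2 to 11.9 FPKM with LIG; its part in the results was not tested.

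The levels of the folding genes spanned a wide range. Of the 3 sensors, EIF2AK3 and ATF6 lay in its lower part, and ERN1 lay below every folding gene that was tested. HSP90B1 averaged 679 FPKM over the 6 libraries, rank 45 of 10695 genes with a mean of at least 1 FPKM. CALR averaged 599 FPKM (rank 51) and HSPA5 362 FPKM (rank 112). At the other end DNAJB9 averaged 8.92 FPKM, PDIA5 7.05 FPKM and DNAJC10 5.72 FPKM, and TXNDC5 was below the filter at 0.134 FPKM. The TXNDC5 value rests on 10 to 21 fragments per library, and the gene shares exons with a read-through gene (given below). In the degradation group the highest mean was that of SELENOK at 38.3 FPKM. XBP1 averaged 40.1 FPKM, against 6.24 FPKM for EIF2AK3, 6.21 FPKM for ATF6 and 2.47 FPKM for ERN1.

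**Figure D1:**
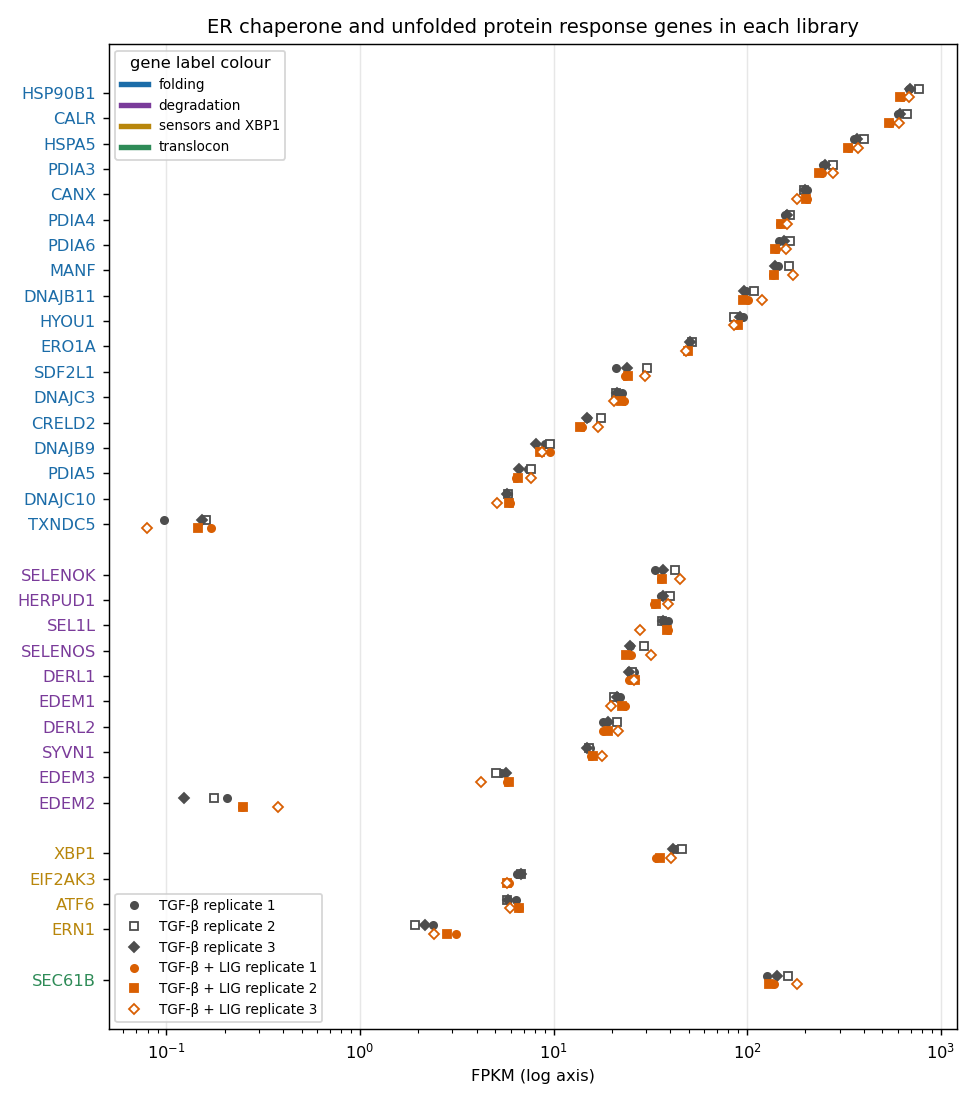
FPKM of the 33 genes in each of the 6 libraries on a log axis, grouped by role and ordered by mean, with TGF-β libraries in grey and TGF-β + LIG libraries in orange; open symbols are TGF-β replicate 2 and LIG replicate 3. Levels run from 679 FPKM (mean of HSP90B1) to 0.134 FPKM (mean of TXNDC5, on 10 to 21 fragments per library). The 6 libraries of a gene span much less than this, the most in EDEM2, from 0.123 to 0.379 FPKM.

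With LIG, no member of the group passed the test, and the differences were small. In bulk RNA, fewer cells of a type and less RNA per cell cannot be told apart. The fit was limma on log2(FPKM + 1) over the 10695 genes with a mean of at least 1 FPKM, LIG minus TGF-β, two-sided, with Benjamini-Hochberg adjustment at 0.05 over all of them. It tested 31 of the 33 members: 0 rose, 0 fell and 31 did not pass, with adjusted p from 0.362 to 0.998. Over all genes tested 0.692% were called, 0.187% higher and 0.505% lower. At an unadjusted p under 0.05 there were 3 members of 31, XBP1, EIF2AK3 and ERN1, against 8.41% of all genes. Limma voom on fragments recovered from the FPKM steps also called 0 members. The median log2 change of the 31 was -0.03 (all genes tested, 0.03), and over all 31 the 95% intervals lay between -0.44 and 0.47, or -26.3% and 38.8% of FPKM + 1. The groups did not overlap for 6 of the 31 members, against 15.8% of all genes tested; an exact permutation of 3 against 3 cannot give a two-sided p below 0.1.

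**Figure D2:**
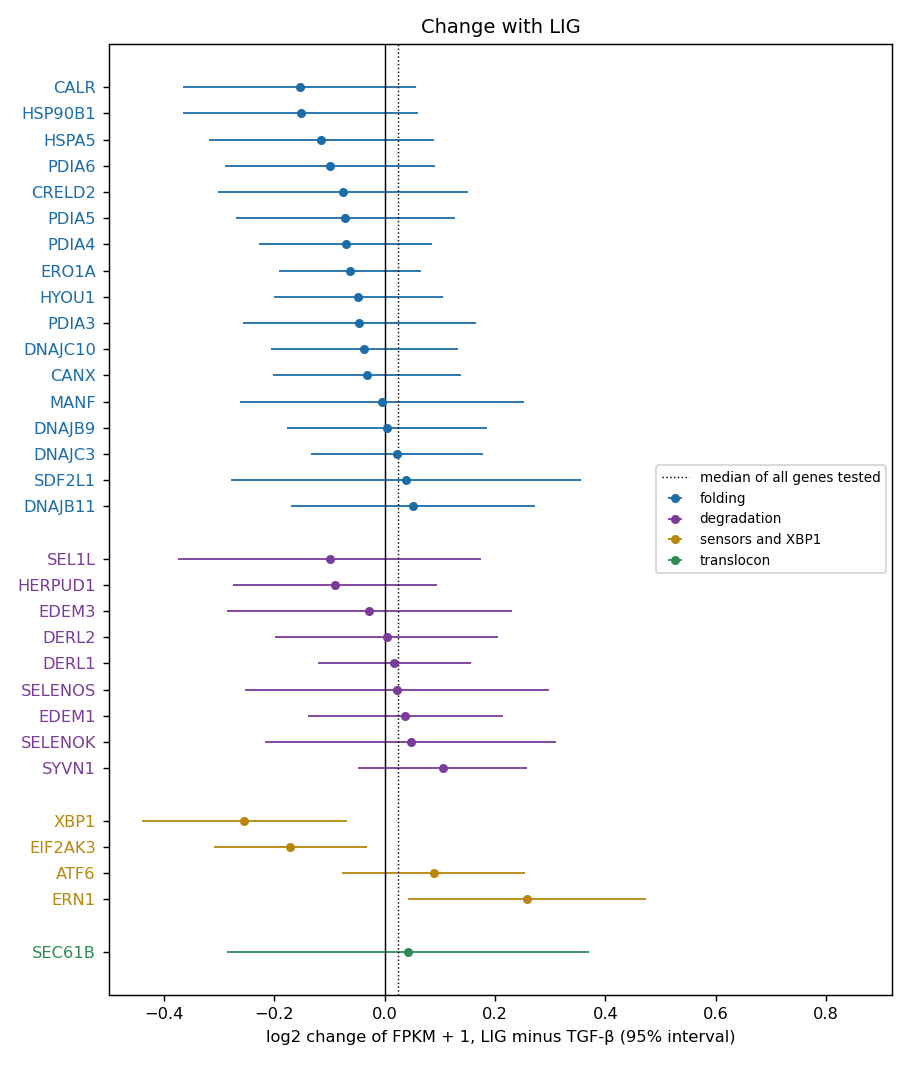
Log2 change of FPKM + 1 (LIG minus TGF-β) with its 95% interval from limma for the 31 members tested, by role; the dotted line is the median of all genes tested, 0.03. All intervals cross 0 except those of XBP1, EIF2AK3 and ERN1, and none of the 31 passed after adjustment over all genes.

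Among the folding genes, 17 of 18 were tested and 0 passed. Of the 17, 13 had a log2 change below 0, beside 4187 of 10695 over all genes tested. The 17 share the same 6 libraries, so their directions are not independent. Their median was -0.047, which was -0.105 without LIG replicate 3 and -0.035 without TGF-β replicate 2. The changes lay between -0.15 (CALR) and 0.05 (DNAJB11), and the 95% intervals of the 17 together reached from -0.36 to 0.36. CALR, the soluble lectin chaperone (ENSG00000179218, GRCh38 chromosome 19, 12938578 to 12944489), was at 604.9, 672.9 and 614.2 FPKM (replicates 1 to 3) under TGF-β alone, against 550.1, 540.2 and 611.0 FPKM when LIG was added. The groups overlapped only through LIG replicate 3, and the log2 change was -0.15 ± 0.09 (SE; adjusted p = 0.755). HSP90B1, the ER member of the HSP90 family (ENSG00000166598, chromosome 12, 103930107 to 103953645), was at 683.1, 770.3 and 690.1 FPKM under TGF-β alone, against 632.2, 614.3 and 681.6 FPKM when LIG was added. Its highest LIG library lay just under its lowest TGF-β library, and the log2 change of -0.15 ± 0.09 did not pass (adjusted p = 0.760).

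HSPA5, which encodes the HSP70 chaperone BiP that also holds the sensors inactive (ENSG00000044574, chromosome 9, 125234853 to 125241330), was at 355.4, 403.0 and 369.9 FPKM under TGF-β alone, against 335.5, 330.9 and 375.9 FPKM when LIG was added. In both groups the library that stands apart was the highest, and the groups overlapped. The log2 change was -0.11, with a 95% interval from -0.32 to 0.09 (adjusted p = 0.834), or -19.8% to 6.42% of FPKM + 1. The HSPA5 values rest on 49823 to 61629 fragments per library.

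The disulfide isomerases lay close together in both groups. PDIA6 was at 146.8, 167.1 and 155.7 FPKM under TGF-β alone, against 140.8, 139.3 and 158.3 FPKM when LIG was added (log2 change -0.10, adjusted p = 0.857). PDIA4 was at 156.5, 165.6 and 159.9 FPKM and at 148.1, 150.4 and 160.6 FPKM (log2 change -0.07, adjusted p = 0.890). In both genes LIG replicates 1 and 2 were below all TGF-β libraries and LIG replicate 3 was among them. PDIA3, which works with the lectin chaperones on glycoproteins, averaged 260 ± 16.2 FPKM (SD, n = 3) under TGF-β alone and 252 ± 23.5 FPKM (n = 3) with LIG added, and PDIA5 averaged 7.24 ± 0.53 and 6.85 ± 0.70 FPKM. ERO1A, the oxidase that recharges the isomerases, stood out by its small spread: 50.9, 51.6 and 50.8 FPKM under TGF-β alone, against 49.0, 49.2 and 48.5 FPKM when LIG was added. Its groups did not overlap, yet the difference was small (log2 change -0.06, 95% interval -0.19 to 0.07, adjusted p = 0.872).

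The lectin CANX, the membrane partner of calreticulin, averaged 200 ± 3.41 and 196 ± 12.5 FPKM. Among the HSP40 co-chaperones of BiP, DNAJB11 averaged 101 ± 6.48 and 105 ± 12.3 FPKM, DNAJC3 21.6 ± 0.86 and 22.0 ± 1.29 FPKM, DNAJB9 8.91 ± 0.74 and 8.93 ± 0.53 FPKM, and DNAJC10, which is also a reductase, 5.80 ± 0.03 and 5.64 ± 0.49 FPKM. HYOU1, a large HSP70-like exchange factor of BiP, averaged 90.8 ± 4.68 and 87.8 ± 2.20 FPKM. The small secreted or luminal proteins that the response induces spread widely between replicates: SDF2L1 ranged from 21.1 to 30.4 FPKM within the TGF-β group alone, MANF averaged 149 ± 14.0 and 149 ± 20.6 FPKM, and CRELD2 15.8 ± 1.49 and 14.9 ± 1.77 FPKM. Adjusted p was at least 0.938 for each gene of this paragraph.

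The degradation genes showed no common direction. Of 10 genes 9 were tested, 0 passed, 6 had a log2 change above 0 and 3 below, and the median was 0.02, a sign that turns with the scaling (-0.002 with TPM, -0.003 with median centring and -0.012 with quantile normalization). HERPUD1, a scaffold of the degradation complex and a standard readout of ER stress (ENSG00000051108, chromosome 16, 56932048 to 56944863), was at 35.9, 39.8 and 36.7 FPKM under TGF-β alone, against 33.1, 33.8 and 38.8 FPKM when LIG was added. As in HSPA5, only LIG replicate 3 reached the TGF-β range (log2 change -0.09, 95% interval -0.27 to 0.09, adjusted p = 0.873). SYVN1, the ubiquitin ligase of that complex, was at 15.5, 15.3 and 14.9 FPKM under TGF-β alone, against 15.7, 16.0 and 17.7 FPKM when LIG was added. The groups did not overlap, and the log2 change of 0.10 ± 0.07 did not pass (adjusted p = 0.768).

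SEL1L, the membrane adaptor that holds SYVN1 in place, was at 38.8, 36.4 and 36.9 FPKM under TGF-β alone, against 38.8, 38.5 and 28.1 FPKM when LIG was added. Its log2 change of -0.10 (adjusted p = 0.929) was 0.05 without LIG replicate 3, the lowest of the 6. EDEM1, a mannosidase-like lectin that marks glycoproteins for disposal, was at 22.1, 20.4 and 21.2 FPKM and at 23.3, 22.6 and 19.7 FPKM, with overlapping groups (adjusted p = 0.969). Its relative EDEM3 averaged 5.37 ± 0.31 and 5.29 ± 0.93 FPKM. The channel proteins DERL1 and DERL2 averaged 25.3 ± 0.69 and 25.6 ± 0.95 FPKM, and 19.5 ± 1.58 and 19.5 ± 1.84 FPKM. The selenoproteins SELENOS and SELENOK averaged 26.3 ± 2.68 and 26.9 ± 4.48 FPKM, and 37.6 ± 4.53 and 39.0 ± 5.23 FPKM. SEC61B, a subunit of the channel through which proteins enter the ER, was at 126.5, 163.4 and 142.2 FPKM under TGF-β alone, against 137.1, 129.1 and 181.2 FPKM when LIG was added. The highest library of each group was again the one that stands apart (log2 change 0.04, 95% interval -0.29 to 0.37, adjusted p = 0.982).

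The sensors and XBP1 held the largest differences of the group in both directions, and none of the 4 passed. XBP1, the transcription factor whose mRNA IRE1 splices (ENSG00000100219, chromosome 22, 28794555 to 28800597), was at 43.0, 46.3 and 41.6 FPKM (replicates 1 to 3) under TGF-β alone, against 34.0, 35.3 and 40.2 FPKM when LIG was added. Every LIG library was below every TGF-β library. The log2 change was -0.25 ± 0.08 (SE), with a 95% interval from -0.44 to -0.07 (unadjusted p = 0.0135, adjusted p = 0.362). FPKM per gene counts spliced and unspliced XBP1 together, so splicing by IRE1 was not measured.

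EIF2AK3, which encodes PERK (ENSG00000172071, chromosome 2, 88556741 to 88627576), was at 6.47, 6.77 and 6.75 FPKM under TGF-β alone, against 5.90, 5.77 and 5.76 FPKM when LIG was added. The libraries that stand apart sat with their own group here, and the groups did not overlap (log2 change -0.17 ± 0.06, 95% interval -0.31 to -0.03, unadjusted p = 0.0221, adjusted p = 0.446). ERN1, which encodes IRE1α (ENSG00000178607, chromosome 17, 64039142 to 64130819), went the other way by its values, at 2.38, 1.92 and 2.17 FPKM under TGF-β alone, against 3.14, 2.81 and 2.41 FPKM when LIG was added. Its groups were separated by a narrow gap between TGF-β replicate 1 and LIG replicate 3 (log2 change 0.26 ± 0.09, 95% interval 0.04 to 0.47, unadjusted p = 0.0243, adjusted p = 0.464). ATF6 was at 6.39, 5.76 and 5.80 FPKM and at 6.65, 6.64 and 5.99 FPKM, with overlapping groups (log2 change 0.09 ± 0.07, adjusted p = 0.847).

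**Figure D3:**
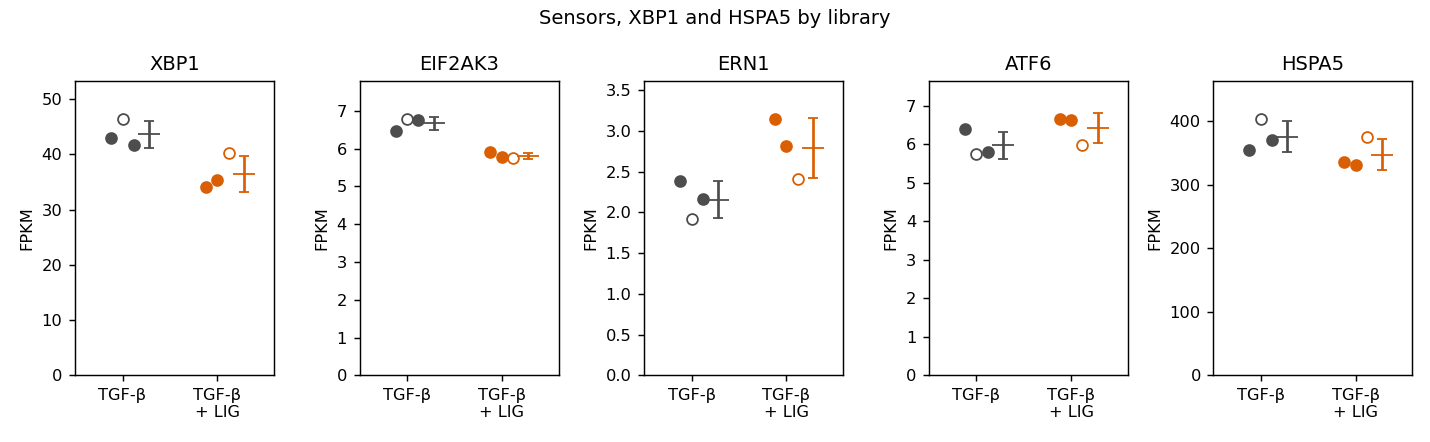
FPKM of XBP1, the sensors EIF2AK3, ERN1 and ATF6, and the chaperone HSPA5 in each library (points), with mean ± SD of 3 libraries beside them; open points are TGF-β replicate 2 and LIG replicate 3. XBP1 and EIF2AK3 lie lower and ERN1 higher in all 3 LIG libraries, while ATF6 and HSPA5 overlap between the groups.

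EDEM2 and TXNDC5 were below the filter. EDEM2 held 15, 13 and 9 fragments in the TGF-β libraries and 18, 18 and 28 in the LIG libraries, and TXNDC5, an isomerase-like protein, held 12, 20 and 19 and 21, 18 and 10. The EDEM2 groups did not overlap, with LIG higher, and those of TXNDC5 did. With no filter on low values neither passed (limma log2 change 0.14, unadjusted p = 0.0281 and adjusted p = 0.620 for EDEM2, and -0.007, adjusted p = 0.991 for TXNDC5). In GENCODE 29, 60.6% of the exon bases of TXNDC5 are shared with the read-through gene BLOC1S5-TXNDC5 on the same strand. Same-strand overlaps were found for 6 members, among them PDIA5 with SEC22A (12.2% of its exon bases), DNAJB11 with AC068631.2 (7.87%) and SYVN1 with FAU (7.24%). BLOC1S5-TXNDC5 has no row in the deposited table, while a read-through gene of EDEM2, MMP24-AS1-EDEM2, does have one. How fragments of shared exons were counted is not given in the sources used here. On the opposite strand 15 of the 33 members overlap exons of another gene; the largest share is that of PDIA6, 25.2% of its exon bases with ATP6V1C2, and the use of strand is not given either. By a search of gene names, HSP90B1, PDIA3, SELENOK and XBP1 have pseudogenes in the genome, which leaves their values uncertain to the extent that reads were shared. For CALR the only match was CALR4P, which may not be a copy of CALR itself. Copies of any member under other names were not searched for.

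The spread within each group followed gene length. Relative to the other 2 libraries of its group, TGF-β replicate 2 was higher by 0.28 on the log2 scale for SEC61B, whose length behind the FPKM is 564 bases, and LIG replicate 3 by 0.44. For SEL1L, at 8570 bases, the same differences were -0.05 and -0.44. HSPA5, at 3921 bases, was higher by 0.15 and 0.17, and XBP1, at 1935 bases, by 0.13 and 0.21. Across the 31 members the correlation of log length with this difference was r = -0.83 (Spearman's rho -0.82) in TGF-β replicate 2 and r = -0.85 (rho -0.87) in LIG replicate 3. Over all 10695 genes tested it was -0.56 and -0.67, so the pattern is not particular to these genes. These are descriptions across genes that share the same libraries, and genes are not independent replicates.

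**Figure D4:**
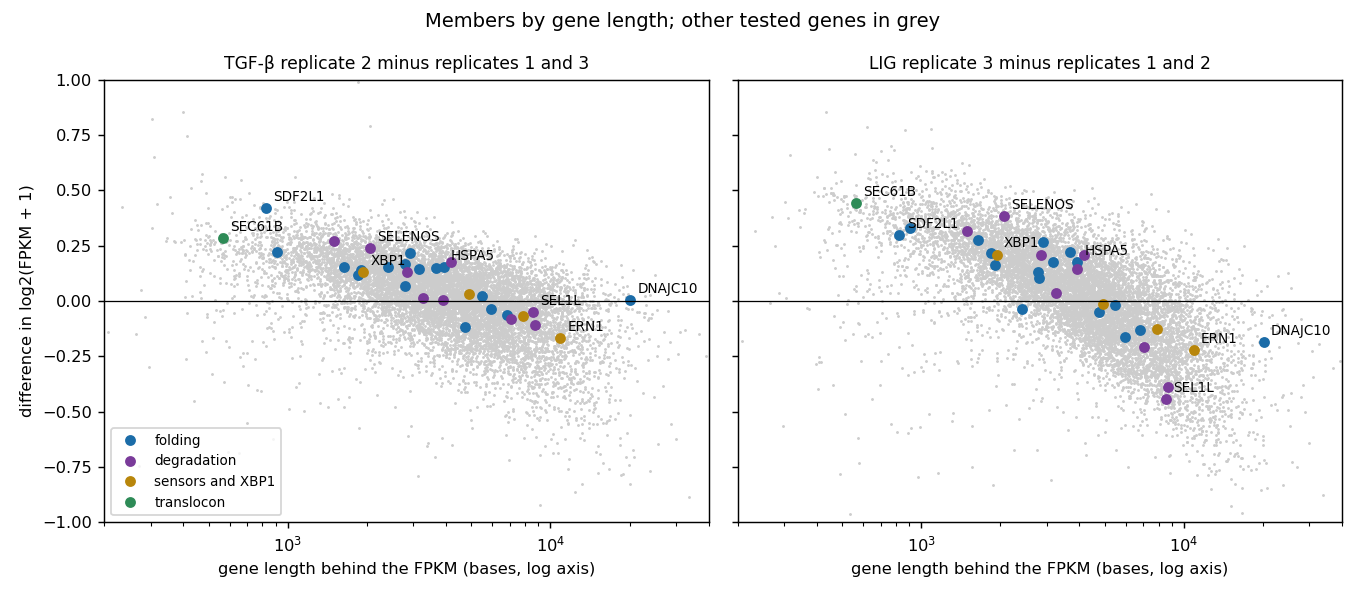
Difference in log2(FPKM + 1) between TGF-β replicate 2 (left) or LIG replicate 3 (right) and the other 2 libraries of its group, against the gene length behind the FPKM (log axis), for the 31 members tested (coloured by role) and all other genes tested (grey; 15 lie outside the axes). Short genes such as SEC61B lie above 0 and long genes such as ERN1 below 0 in both.

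Of the 4 members under 1500 bases all 4 were higher in these libraries on average (median 0.33), and so were 15 of 15 from 1500 to under 4000 bases (median 0.16); of the 12 members of 4000 bases and over, 9 were lower (median -0.10). The same medians over all genes tested were 0.26, 0.11 and -0.08.

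Of the fits that gave these libraries less weight, took them out or adjusted for summed FPKM, 3 called some members. Leaving out only TGF-β replicate 2 or only LIG replicate 3 called 0 members in either direction. Quality weights per library, estimated from these same libraries, were 0.285 for TGF-β replicate 2 and 0.138 for LIG replicate 3. They were 6.03 for TGF-β replicate 3 and 3.42 for LIG replicate 2, against 0.969 and 1.27 for replicate 1 of TGF-β and of LIG. The weighted fit therefore leans mostly on TGF-β replicate 3 and LIG replicate 2. With these weights 9 of 31 members were called, beside 17.7% of all genes. These were CALR (log2 change -0.18), HSP90B1 (-0.16), HSPA5 (-0.15), PDIA6 (-0.14), HERPUD1 (-0.12), XBP1 (-0.25), EIF2AK3 (-0.18), ERN1 (0.28) and ATF6 (0.15). With summed FPKM as a covariate, a fit added after seeing the data, 6 of 31 were called, beside 7.11% of all genes: CALR, HSP90B1, HSPA5, PDIA6 and XBP1 lower and ERN1 higher. Without both libraries, XBP1 (log2 change -0.28, adjusted p = 0.00559) and CALR (-0.16, adjusted p = 0.0387) were called lower, 2 of 31 beside 4.65% of all genes. The 3 fits use the same libraries and are no separate support for each other. Over all 20 alternatives the log2 change of XBP1 ran from -0.324 to -0.205 and its adjusted p from 0.00096 to 0.805, and that of CALR from -0.208 to -0.106, with adjusted p from 0.00321 to 1.0.

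The members whose promoters hold an ERSE or ERSE-II, shown above, were set beside the rest. This split was not among the planned comparisons. The 10 had a median log2 change of -0.09, from -0.25 (XBP1) to 0.04 (SDF2L1), with 9 below 0 and 1 above. Over all genes tested, 4187 of 10695 were below 0. Most of the 10, such as HSPA5, CALR and XBP1, are among the 15 members from 1500 to under 4000 bases, whose median was -0.071. The part of gene length in this was not tested. The 19 other tested members with a promoter in the table had a median of 0.004, with 8 below 0 and 11 above. This is a description of small differences, none of which passed, and no test was made of it. Outside the group the ERSE was in 18 genes, of which 8 were tested and 0 called. ERSE-II was in 16, of which 10 were tested and 0 called. Over all genes tested 0.692% were called, so 0 calls among so few say nothing about these genes.

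Other genes of the pathway were counted in the same fit, in which 0.692% of all genes tested were called. The branch below PERK, through ATF4 and CHOP, had 12 of 17 genes tested, with 0 called in either direction (limma, 4 with an unadjusted p under 0.05, against 8.41% of all genes tested) and a median log2 change of 0.02. ATF4 itself averaged 26.6 ± 1.49 FPKM (SD, n = 3) under TGF-β alone and 27.0 ± 3.68 FPKM (n = 3) with LIG added, and DDIT3, which encodes CHOP, 11 ± 1.16 and 11.9 ± 1.69 FPKM (adjusted p = 0.991 and 0.905). The 4 were named after their values were seen. PPP1R15A, which encodes GADD34 and restarts translation, was at 31.9, 31.8 and 31.8 FPKM under TGF-β alone, against 38.6, 40.1 and 46.6 FPKM when LIG was added (adjusted p = 0.118). CEBPB averaged 26.0 ± 2.23 and 35.1 ± 4.89 FPKM (adjusted p = 0.231), TRIB3 2.58 ± 0.28 and 3.07 ± 0.13 FPKM (adjusted p = 0.567), and DDIT4 4.39 ± 0.38 and 3.31 ± 0.51 FPKM (adjusted p = 0.340). Groups did not overlap in any of these 4, which were picked for their small p (15.8% of all genes tested do not overlap), and DDIT4 was the one with lower values under LIG.

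Proteases, kinases and factors that process or relay the sensor signals had 0 of 16 tested genes called (median 0.04), beside 0.692% of all genes tested. Other oxidoreductases and foldases had 0 of 21 called (median -0.01), among them P4HB, the main protein disulfide isomerase, at 331 ± 3.19 and 326 ± 20.5 FPKM. Glycan-dependent quality control had 0 of 15 called (median 0.06), other degradation machinery 0 of 23 (median 0.08), and translocation, signal peptidase and oligosaccharyltransferase genes 0 of 31 (median 0.03). In these 5 lists 1, 2, 1, 1 and 0 genes had an unadjusted p under 0.05, against 8.41% of all genes tested. Of 22 cytosolic and mitochondrial chaperones 1 fell, 0 rose and 21 did not pass (median 0.07), beside 0.505% lower and 0.187% higher over all genes tested. The median over all genes tested was 0.03. The 1 was DNAJB4, a cytosolic HSP40, at 23.8, 25.5 and 24.1 FPKM under TGF-β alone, against 19.1, 17.7 and 17 FPKM when LIG was added (log2 change -0.43 ± 0.07, adjusted p = 0.0384). That call did not survive leaving out TGF-β replicate 1, 2 or 3 (adjusted p = 0.172, 0.152 and 0.225) or LIG replicate 1 or 2 (0.084 and 0.218), although the log2 change stayed between -0.472 and -0.398 in these 5 fits. The call was also lost with TPM (0.0775), with no filter (0.111) and with the replicate block (0.220).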

How the data were processed

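The authors deposited 1 table of FPKM values with a column for each library. Processing steps named by the submitters are fastp, HISAT2 2.1.0, DESeq2 and GRCh38.p13, per the submitters' processing notes, which give them no roles; counting tool, annotation and strand use are not given in the sources used here. Titles put 3 libraries in each group. Genes with a mean of at least 1 FPKM (10695 of 22701) entered limma 3.58.1 as log2(FPKM + 1), with group as the sole term and an empirical Bayes trend (4 residual degrees of freedom), and p-values were adjusted by Benjamini-Hochberg at 0.05. The pseudocount understates changes of low genes. Library totals were inferred from the steps between low FPKM values. Fragments and lengths were then recovered by finding for each gene the smallest whole length at which its FPKM gave whole fragments, within 0.01, in all libraries. Such a length was found for all 22701 genes. That all 114123 values above 0 are then whole follows from this rule and is no separate check. Positions and overlaps came from GENCODE 29 (GRCh38), promoters from RefSeq (GRCh38.p14).

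Members and lists were chosen with earlier results of these data known. Values in each library were given for members that passed, the 6 folding and 4 degradation members with the smallest adjusted p, HSPA5, HSP90B1, CALR, PDIA4, HERPUD1, SEC61B, XBP1 and the sensors. From the other lists, genes that passed and ATF4, DDIT3 and P4HB were named, and the 4 genes of the PERK branch with an unadjusted p under 0.05 were added after their values were seen. Alternatives were pseudocounts of 0.1 and 0.5, no filter or a mean of at least 5 FPKM, scaling to TPM, by median or by quantiles, limma with no trend, robust or with quality weights per library, the replicate block, and leaving out libraries; limma voom on fragments, scaled by library total, and a covariate of summed FPKM were added after seeing the data. R 4.3.3 and Python 3.11.15 were used.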

Additional observations from a re-analysis of the deposited data

How the results depend on the processing

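Of the 20 alternatives 3 called a member: quality weights (2 higher, 7 lower), summed FPKM as a covariate (1 higher, 5 lower) and leaving out both TGF-β replicate 2 and LIG replicate 3 (0 higher, 2 lower). The count over all genes, 74, became 1891, 760 and 497 in these 3, 14 with no filter, 22 with the replicate block and 11 to 93 when 1 library was left out. Whether replicate numbers pair the samples is not stated. Deviations of same-numbered libraries correlated at 0.47, -0.57 and -0.34. These values cannot decide it, because the libraries that stand apart, TGF-β replicate 2 and LIG replicate 3, carry different numbers. The replicate block called 0 members. Voom was run with library totals (77 genes, 0 members); the planned TMM scaling was not run. The median log2 change of the sensors and XBP1, -0.041, was -0.17 with a mean of at least 5 FPKM, which drops ERN1, -0.016 with quality weights and -0.056 to -0.017 with libraries left out. Of 619 recomputed log2 changes of the 31 members, 542 kept sign and call, 17 passed the threshold and 60 crossed 0, in 16 members whose reported size was at most 0.099; the cause was not tested. With TPM, the log2 change was -0.015 for DNAJB9, -0.00188 for DERL1 and -0.017 for DERL2. With quality weights, the log2 change was 0.013 for CANX, 0.024 for DNAJC10, 0.043 for SEL1L, 0.042 for EDEM3, -0.016 for DERL2, -0.042 for SELENOS, -0.0084 for SELENOK and -0.087 for SEC61B. With median centring, the log2 change was -0.017 for DNAJB9, -0.00289 for DERL1 and -0.017 for DERL2. With quantile normalization, the log2 change was -0.022 for DNAJB9, -0.00471 for DNAJC3, -0.012 for DERL1, -0.031 for DERL2 and -0.0078 for SELENOS. With summed FPKM as a covariate, the log2 change was -0.02 for SDF2L1, 0.018 for EDEM3, -0.031 for DERL2, -0.031 for SELENOS, -0.00377 for SELENOK and -0.023 for SEC61B. Without both libraries, the log2 change was 0.01 for CANX, 0.027 for DNAJC10, 0.032 for SEL1L, 0.066 for EDEM3, -0.00637 for DERL2, -0.025 for SELENOS and -0.011 for SEC61B. When libraries were left out, it ranged from -0.053 to 0.067 for DNAJB9, -0.00243 to 0.048 for DERL1, -0.066 to 0.063 for DERL2, -0.062 to 0.022 for CANX, -0.07 to 0.027 for DNAJC10, -0.176 to 0.049 for SEL1L, -0.099 to 0.102 for EDEM3, -0.105 to 0.104 for SELENOS, -0.058 to 0.137 for SELENOK, -0.106 to 0.137 for SEC61B, -0.013 to 0.068 for DNAJC3, -0.076 to 0.179 for SDF2L1, -0.115 to 0.07 for MANF, -0.00742 to 0.107 for EDEM1, -0.12 to 0.00527 for PDIA3 and -0.04 to 0.117 for DNAJB11.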
